A study of Mus musculus with 40 samples.

Results

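The effect of MitoQ on the kidney cortex of non-diabetic mice was examined by comparing the libraries of 5 WT mice given MitoQ in water with those of 5 WT mice given water alone. These 10 libraries, 1 from each animal, were chosen by their labels out of the 40 libraries of the series. All of these mice were male, carried no Akita allele and were littermates of Ins2-Akita mice on the C57BL/6J background. Treatment in the study began at 6 weeks of age and ended at 22 weeks of age. The protocols state a dose and daily oral gavage for MitoGamide, another compound of the series, whereas the dose and route of MitoQ are not given in the sources used here. Akita mice, which are heterozygous for a mutation of the insulin gene Ins2 and are diabetic, received the same treatments in a further 10 libraries and serve below for side-by-side values. Each library came from whole cortex, so that fewer cells of a type and less RNA per cell cannot be told apart.

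MitoQ is a ubiquinone joined by an alkyl chain to a lipophilic triphenylphosphonium cation. The cation draws the molecule into mitochondria along their membrane potential, and the quinone is reduced there by the respiratory chain to an antioxidant quinol. The cortex of the kidney is rich in mitochondria because proximal tubules reabsorb solutes at the cost of ATP made by oxidative phosphorylation. Coenzyme Q, the natural ubiquinone, carries electrons from complexes I and II and from several other dehydrogenases to complex III. Oxidative and electrophilic stress activates the transcription factor NRF2, which binds antioxidant response elements near genes of glutathione, thioredoxin and quinone metabolism.

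The WT water libraries held between 9964109 and 16318325 estimated counts (median 15166144), and the WT MitoQ libraries held between 9179473 and 17653858 (median 11918426). Protein-coding genes took 73.5%, 54.5%, 47.0%, 50.2% and 69.0% of the counts in water replicates 1 to 5 and 56.5%, 62.1%, 27.1%, 63.9% and 64.8% in MitoQ replicates 1 to 5. MitoQ replicate 3 was thus below every other library, with 2483091 protein-coding counts. In that library, mitochondrial ribosomal RNA took 46.6% and nuclear-encoded ribosomal RNA 16.6% of the counts, against 9.23% to 34.6% and 0.0754% to 9.74% in the other 9 libraries. The group means of the protein-coding share were 54.9% ± 15.9 with MitoQ and 58.8% ± 11.7 with water (SD, n = 5), a difference that did not pass a two-sided exact permutation test (p = 0.714, adjusted p = 0.722 over 4 measures). Without MitoQ replicate 3 the difference was 3.03 percentage points in favour of MitoQ in place of -3.92. The share of mitochondrial transcripts, the total counts and the share of the 10 most abundant genes gave exact permutation p of 0.413, 0.603 and 0.722. Transcripts of proximal tubule markers were abundant in every library, with a sum over 12 markers of 13714 to 24483 CPM with water and 13204 to 24389 CPM with MitoQ. Here CPM denotes counts scaled to a common library size, taken over all tested genes with TMM normalization. Water replicate 1 stood apart by liver transcripts, which are described further on.

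**Figure D1:**
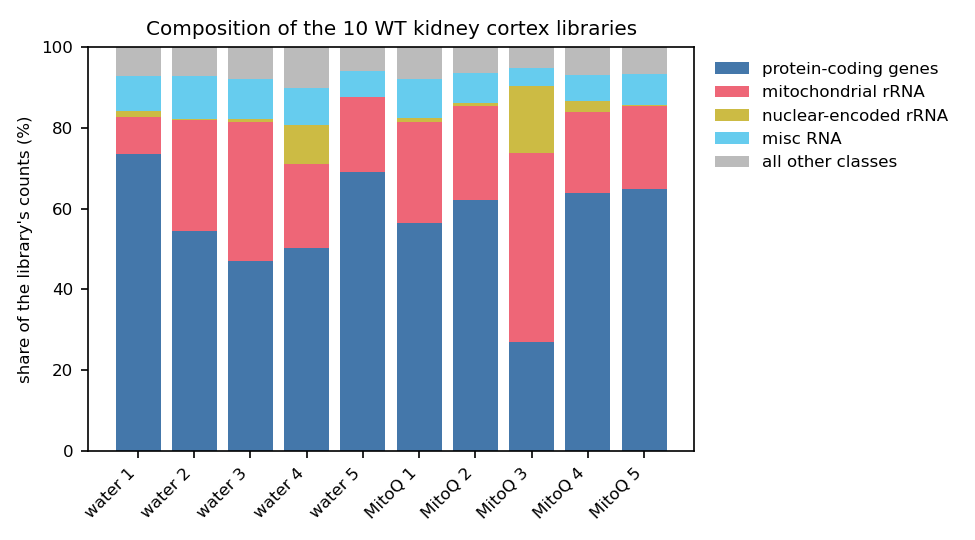
Stacked bars give the share of each library's counts (%) in 5 classes of transcripts for the 5 water and the 5 MitoQ libraries from WT kidney cortex. MitoQ replicate 3 has the lowest protein-coding share (27.1%) and the highest share of mitochondrial ribosomal RNA (46.6%), and water replicate 1 has the highest protein-coding share (73.5%).

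No gene passed the threshold of an adjusted p under 0.05 in edgeR's quasi-likelihood test of the 17881 genes whose mean over the 10 libraries reached 10 counts (0% called), and the smallest adjusted p was 0.99995. An unadjusted p under 0.05 was found for 575 genes, or 3.22% of those tested, of which 142 were higher (0.794%) and 433 lower (2.42%) with MitoQ. The 5 MitoQ values lay above all 5 water values in 40 genes (0.224%) and below all of them in 126 genes (0.705%). DESeq2 called 2 genes on the same libraries and gave 638 genes an unadjusted p under 0.05. The median log2 fold change over all tested genes was -0.02, and its median size was 0.15. The 95% interval of the fold change reached a median of 0.55 to either side on the log2 scale. The whole interval lay between -1 and 1 in 13276 genes, or 74.2% of those tested, and in 93.6% of the 9696 genes whose mean reached 100 counts. In most well-counted genes a change of more than 1 on the log2 scale was therefore outside the interval, and in 6064 genes the whole interval lay between -0.58 and 0.58. Without MitoQ replicate 3, 847 genes had an unadjusted p under 0.05, 0 genes were called and the smallest adjusted p was 0.946. In all that follows, higher and lower describe the estimates, and none of the single genes passed the adjusted threshold in this test.

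Of the 22 gene lists, that of the mitochondrial genome had the median furthest from zero. This genome encodes 13 subunits of the respiratory chain and of ATP synthase, made from long precursor transcripts of both strands. Of these 13 genes, 11 were higher with MitoQ, 8 had an unadjusted p under 0.05 and 4 had groups without overlap, all of them higher, where 0.794% of all tested genes were higher with such a p and 0.224% were higher without overlap. The 13 genes share precursor transcripts and libraries and are not independent, so these counts and shares were not compared by a test. The median log2 fold change over the 13 genes was 0.72, against -0.02 over all tested genes. It was 0.56 without MitoQ replicate 3, in which 10 of the 13 genes had the highest level of all 10 libraries.

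Among the genes of complex I subunits, mt-Nd4l (mitochondrial genome, 9877 to 10173, GRCm38) was at 147, 284, 660.5, 384 and 396 CPM in water replicates 1 to 5. In MitoQ replicates 1 to 5 it was at 696, 783, 1258, 824 and 834 CPM. The groups did not overlap, and MitoQ replicate 3 had the highest value. The log2 fold change was 1.23 ± 0.34 (SE, n = 5), with an unadjusted p of 0.0034. Leaving out 1 library at a time moved it between 1.03 and 1.54, and without water replicate 1 and MitoQ replicate 3 together it was 0.86. For mt-Nd2 (3914 to 4951) the levels were 1202, 730, 1350, 794 and 1355 CPM with water and 1373, 1729, 4287, 2060 and 1999 CPM with MitoQ. The lowest MitoQ value lay just above the highest water value, and the log2 fold change of 1.08 ± 0.33 became 0.72 without MitoQ replicate 3. The short mt-Nd3 (9459 to 9806) was at 176 to 278 CPM with water and 288 to 503 CPM with MitoQ, a log2 fold change of 0.68 ± 0.20. In mt-Nd5 and mt-Nd4, which encode large membrane subunits of the same complex, the log2 fold changes were 0.88 ± 0.26 and 0.92 ± 0.30, and both pairs of groups overlapped. The gene mt-Nd6 (13552 to 14070), the only protein gene on the light strand, was at 161 to 586 CPM with water. With MitoQ it was at 559, 649, 2023, 763 and 650 CPM, so that replicate 3 stood far above the others. Its log2 fold change of 1.43 ± 0.44 was 0.92 without that library.

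The complex I gene mt-Nd1 had a log2 fold change of 0.64 ± 0.30, with an interval from -0.02 to 1.30, and its groups overlapped. The remaining members belong to the other complexes. The ATP synthase gene mt-Atp8 (7766 to 7969) was at 60.01, 27.4, 149, 146 and 57.3 CPM with water and at 164, 181, 491, 279.5 and 213 CPM with MitoQ. The groups did not overlap, and the log2 fold change was 1.59 ± 0.46 (unadjusted p = 0.0048). For mt-Atp6 (7927 to 8607), which shares bases with mt-Atp8, the log2 fold change was only 0.46 ± 0.34, with a range of 1091 to 4096 CPM with water and 2522 to 4810 CPM with MitoQ. Cytochrome b of complex III, mt-Cytb, had a log2 fold change of 0.72 ± 0.30. Of the 3 genes of complex IV, mt-Co1 had a log2 fold change of 0.15 ± 0.38, mt-Co2 of -0.74 ± 0.59 and mt-Co3 of -0.27 ± 0.42, and all 3 intervals included zero. The level of mt-Co2 was 5241, 2456, 2592, 594 and 6067 CPM with water and 2463, 3590, 498, 1273 and 2311 CPM with MitoQ, which is a wide spread in both groups. The ribosomal RNAs of the same genome, mt-Rnr1 and mt-Rnr2, had log2 fold changes of 1.10 ± 0.68 and 0.58 ± 0.61, which were 0.06 and -0.08 without MitoQ replicate 3. As a share of all protein-coding counts, the mitochondrial protein genes took 6.88%, 4.504%, 5.82%, 3.30% and 7.26% with water and 5.78%, 6.93%, 9.71%, 7.13% and 7.01% with MitoQ, so that the groups overlapped in this summed measure. The lower water values were those of replicates 2, 3 and 4, whose protein-coding shares were 54.5%, 47.0% and 50.2%, against 73.5% and 69.0% in replicates 1 and 5. MitoQ replicate 3, with a protein-coding share of 27.1%, had the highest value. The part of the protein-coding share in this summed measure was not tested. Several of the mitochondrial protein genes overlap on the genome, namely mt-Nd4l with mt-Nd4, mt-Atp8 with mt-Atp6, and mt-Nd6 with mt-Nd5 on the opposite strand. Reads from the bases that the first 2 pairs share on 1 strand fit both genes, and for mt-Nd6 and mt-Nd5 the strand setting of the mapping is not given in the sources used here.

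**Figure D2:**
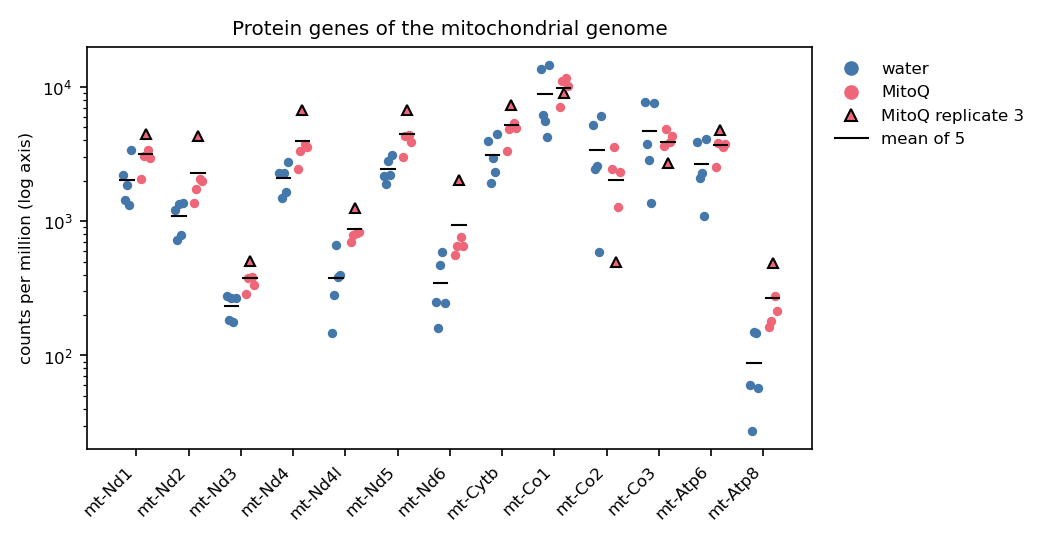
Points give the level of the 13 mitochondrial protein genes in CPM (log axis) in each WT library, with lines at the mean of 5 libraries and a triangle for MitoQ replicate 3. The groups are separate for mt-Nd4l, mt-Nd2, mt-Nd3 and mt-Atp8 and overlap for the cytochrome oxidase genes mt-Co1, mt-Co2 and mt-Co3.

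The genes of antioxidant defence had a list median near zero, with estimates from -0.35 for Gpx4 to 0.14 for Cat. Estimates lay above zero in 5 and below zero in 18 of the 23 antioxidant enzymes, around a median of -0.05 on the log2 scale. An unadjusted p under 0.05 occurred in 0 of the 23, beside 3.22% of all tested genes. The intervals of 22 of these enzymes lay between -1 and 1, and those of 6 lay between -0.58 and 0.58. Manganese superoxide dismutase, Sod2, which removes superoxide in the mitochondrial matrix, was at 219, 152, 124, 130 and 253 CPM with water. With MitoQ it was at 165, 228, 118, 199 and 194 CPM, within the range of the water libraries except in replicate 3. The log2 fold change was 0.04 with an interval from -0.48 to 0.57. Catalase, Cat, which breaks down hydrogen peroxide in peroxisomes, was at 532, 387, 298, 405 and 578 CPM with water and 449, 596, 365, 492 and 528 CPM with MitoQ (0.14, interval -0.31 to 0.60). The peroxiredoxin Prdx2 (-0.26, interval -0.81 to 0.30) and the extracellular superoxide dismutase Sod3 (-0.11, interval -0.41 to 0.19) had the smallest p of the list. The widest interval was that of Gpx4, a phospholipid hydroperoxide glutathione peroxidase, at -1.48 to 0.77. Without MitoQ replicate 3, 73.9% of the list was higher in place of 21.7%, and the median was 0.03.

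Of 27 tested regulators and targets of NRF2, 9 were higher and 18 lower, with a median of -0.05. Single left-out libraries moved this median between -0.18 and 0.08. Of the 27 genes, 0 had an unadjusted p under 0.05, beside 3.22% of all tested genes. The quinone reductase Nqo1 was at 27.6, 24.7, 14.6, 17.6 and 32.8 CPM with water and 22.0, 24.4, 20.3, 33.1 and 28.2 CPM with MitoQ. The groups overlapped widely, and the log2 fold change was 0.13 with an interval from -0.36 to 0.62. Heme oxygenase 1, Hmox1, which degrades heme and responds to oxidative stress, was at 21.0, 13.5, 10.3, 17.6 and 23.9 CPM with water and 15.1, 22.0, 15.0, 15.6 and 16.2 CPM with MitoQ. Its log2 fold change was -0.04, with an interval from -0.52 to 0.45. The epoxide hydrolase Ephx1 (-0.28, interval -0.69 to 0.13) and the glutathione S-transferase Gstp1 (-0.26, interval -0.79 to 0.27) had the smallest p of this list.

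To show which of these genes carry a canonical antioxidant response element close to their start, the letters TGACNNNGC were searched on both strands of RefSeq promoter windows of 300 bases (GRCm38.p6), of which 250 lie before the start. The letters were found in 12.4% of all 32851 windows. Counted by gene, since a gene can have more than 1 window, they were in a window of 16.4% of the 11072 tested protein-coding genes that had one and of 9 of the 26 such members of the NRF2 list. The following stretches of 29 bases are the matches before the start of 4 members with roles in redox metabolism, written along the gene's strand with the element in capitals.
Nfe2l2, which encodes NRF2 itself (chr2:75704885-75704913, minus strand): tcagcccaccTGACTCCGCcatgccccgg
Gclm, glutamate-cysteine ligase, modifier subunit (chr3:122245413-122245441, plus strand, element on the other strand): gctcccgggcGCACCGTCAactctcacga
Txnrd1, thioredoxin reductase 1 (chr10:82859104-82859132, plus strand, element on the other strand): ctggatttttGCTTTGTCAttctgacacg
G6pdx, glucose-6-phosphate dehydrogenase (chrX:74428919-74428947, minus strand, element on the other strand): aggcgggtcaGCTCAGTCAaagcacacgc
The log2 fold changes of these genes with MitoQ were 0.11 for Nfe2l2 (interval -0.18 to 0.41), 0.10 for Gclm (-0.54 to 0.75), -0.05 for Txnrd1 (-0.62 to 0.52) and -0.00 for G6pdx (-0.50 to 0.49). Over 11072 tested protein-coding genes with a window, the median log2 fold change was -0.04 in the 1821 genes with the letters and -0.03 in the others, and an unadjusted p under 0.05 was found in 3.68% and 3.34% of them. A match is a description of the sequence and not a measured binding site.

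**Figure D3:**
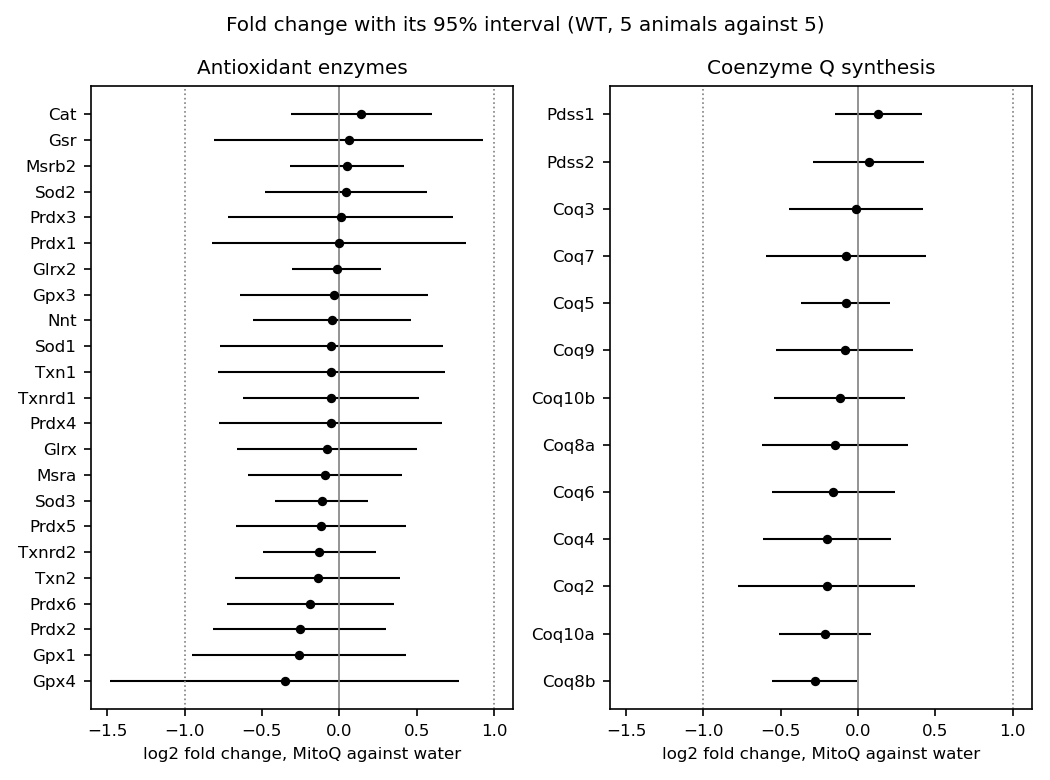
Points give the log2 fold change of MitoQ against water in WT mice and bars its 95% interval for 23 antioxidant enzymes (left) and 13 genes of coenzyme Q synthesis (right). Dotted lines mark -1 and 1, and only the interval of Gpx4 crosses one of them.

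Genes around the ubiquinone pool had list medians close to zero. Of 13 genes of coenzyme Q synthesis, 2 were higher and 11 lower, with a median of -0.12, and the intervals of all 13 lay between -1 and 1. The median was -0.052 without MitoQ replicate 3, and single left-out libraries moved it between -0.206 and -0.046. The atypical kinase gene Coq8b, whose product is needed for coenzyme Q synthesis in podocytes, was at 15.7, 12.8, 14.6, 16.0 and 14.2 CPM with water and 11.6, 12.5, 14.2, 10.7 and 11.5 CPM with MitoQ. The groups overlapped through MitoQ replicate 3, and the log2 fold change was -0.28 ± 0.12. The binding protein gene Coq10a had a log2 fold change of -0.21 with an interval from -0.51 to 0.08. Among 9 dehydrogenases that hand electrons to ubiquinone, 4 were higher and 5 lower, with a median of -0.01, and 2 were lower without overlap of the groups, beside 0.705% of all tested genes. The estimate furthest from zero was that of Prodh2, which encodes hydroxyproline dehydrogenase, at -0.49 with an interval from -1.06 to 0.08 (-0.67, interval -1.23 to -0.12, without MitoQ replicate 3). Proline dehydrogenase, Prodh, which feeds electrons from proline into the chain, was at 167, 225, 161, 191 and 182 CPM with water and at 158, 146, 144, 139 and 139 CPM with MitoQ. These groups did not overlap, and the log2 fold change was -0.35 ± 0.13 (unadjusted p = 0.021). Dihydroorotate dehydrogenase, Dhodh, which couples pyrimidine synthesis to ubiquinone, had groups that did not overlap either, at 8.88 to 12.0 CPM with water and 7.61 to 8.78 CPM with MitoQ (-0.27 ± 0.13).

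The medians of the nuclear genes of the respiratory chain lay close to zero and changed sign with the libraries used. Of 36 nuclear genes of complex I, 13 were higher and 23 lower, with a median of -0.10, and of 39 genes of complexes II to V and cytochrome c, 11 were higher and 28 lower, with a median of -0.11. Without MitoQ replicate 3 the medians were 0.04 and 0.01, and 61.1% and 59.0% of the genes were higher. They were also above zero without water replicate 1 (0.05 and 0.05) and without water replicate 5 (0.06 and 0.02). A single member of these lists, the complex I subunit gene Ndufa5, had an unadjusted p under 0.05, beside 3.22% of all tested genes. Ndufa5 was at 22.7 ± 3.91 CPM with water and 28.4 ± 3.62 CPM with MitoQ (SD, n = 5). The lowest p of the second list belonged to Atp5g2, a subunit of the membrane ring of ATP synthase, at 5.94 ± 1.99 and 3.35 ± 2.19 CPM. Of 24 genes of the TCA cycle and pyruvate entry, 6 were higher and 18 lower, with a median of -0.04, which was 0.08 without MitoQ replicate 3. Among 23 genes of mitochondrial fission, fusion and mitophagy the median was -0.09, and all 23 intervals lay between -1 and 1. Of 21 tested genes of the mitochondrial and integrated stress response, 5 were higher and 16 lower, with a median of -0.14. This median was -0.10 without MitoQ replicate 3, and single left-out libraries moved it between -0.21 and -0.08. Of the 21 genes, 0 had an unadjusted p under 0.05, beside 3.22% of all tested genes.

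Regulators of mitochondrial biogenesis were divided, with 8 higher and 9 lower of 17 and a median of -0.03, which single left-out libraries moved between -0.10 (without water replicate 5) and 0.03 (without water replicate 3). The coactivator gene Ppargc1a was at 74.0, 79.4, 67.6, 59.1 and 71.6 CPM with water and 78.8, 66.1, 111, 74.8 and 73.5 CPM with MitoQ. Replicate 3 alone lay above the water range, and the log2 fold change of 0.20 (interval -0.15 to 0.54) was 0.06 without it. Esrra, the gene of the estrogen-related receptor alpha that works with this coactivator on genes of oxidative metabolism, was at 72.9, 70.6, 55.6, 74.1 and 79.5 CPM with water and 53.7, 58.0, 34.7, 50.7 and 51.3 CPM with MitoQ. The groups overlapped by a single pair of values, and the log2 fold change was -0.50 ± 0.16 (unadjusted p = 0.0081, -0.40 without MitoQ replicate 3). The mitochondrial RNA polymerase gene Polrmt had a log2 fold change of -0.35 ± 0.14.

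Among nuclear genes lower with MitoQ and without overlap of the groups, the smallest p belonged to Jund (ENSMUSG00000071076.6, chromosome 8, 70698949 to 70700616, GRCm38), which encodes a subunit of the transcription factor AP-1. It was at 66.5, 73.6, 55.2, 63.4 and 63.7 CPM with water and 47.0, 44.0, 37.2, 38.4 and 47.2 CPM with MitoQ. The log2 fold change was -0.59 ± 0.13, with an unadjusted p of 0.00061, and leaving out 1 library at a time moved it between -0.64 and -0.52. Gcgr (chromosome 11, 120530699 to 120538986), the glucagon receptor gene, was at 13.7, 13.6, 20.01, 18.9 and 12.8 CPM with water and held a narrow range of 9.79 to 10.6 CPM with MitoQ (-0.64 ± 0.15). Tmem259 (chromosome 10, 79974948 to 79984330), which encodes a membrane protein also known as membralin, was at 72.3 to 78.8 CPM with water and 50.2 to 60.8 CPM with MitoQ (-0.43 ± 0.11), and it was called by DESeq2 with an adjusted p of 0.0355. Gtpbp3, which modifies mitochondrial transfer RNA, was at 9.30 to 10.8 CPM with water and 6.27 to 8.03 CPM with MitoQ (-0.48 ± 0.13). The heparan sulfate sulfotransferase gene Hs3st6 was near the limit of detection, with 0.864 to 1.82 CPM with water and 0.423 to 0.796 CPM with MitoQ (-1.25 ± 0.31). Lower as well were Scand1 (-0.50 ± 0.11), Hgh1 (-0.62 ± 0.17), Cbarp (-0.79 ± 0.22) and the clone-named gene CT010467.2 (-0.95 ± 0.24), which has no entry in the annotation used here.

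Among nuclear genes higher with MitoQ and without overlap, the zinc finger gene Zfp97 (ENSMUSG00000095990.1, chromosome 17, 17121415 to 17146831) had the smallest p. It was at 5.001, 6.38, 5.11, 4.51 and 6.54 CPM with water and 8.60, 8.01, 10.6, 9.63 and 8.26 CPM with MitoQ, a log2 fold change of 0.70 ± 0.16 (unadjusted p = 0.00087). The same gene was at -0.29 on the log2 scale in Akita mice. Because zinc finger genes of this family have near-identical copies, reads of Zfp97 and of Zfp994 (0.40 ± 0.13) could have been divided among them by the mapping. The cilium genes Lztfl1, which regulates transport of the BBSome, and Cep290, which builds the transition zone of cilia, were at 16.7 to 22.8 and 17.3 to 22.2 CPM with water. With MitoQ they were at 23.6 to 28.4 and 22.8 to 34.9 CPM (log2 fold changes of 0.32 ± 0.12 and 0.38 ± 0.14). Nkapd1 (0.47 ± 0.14) and the odorant receptor gene Olfr323 (1.02 ± 0.36), the latter at 0.370 to 1.06 CPM with water and 1.06 to 1.98 CPM with MitoQ, completed the list with the mitochondrial genes.

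The genes at both ends of the comparison differed in base composition. The median GC content was 37.8% in the 10 higher genes of the rule, 61.7% in the 9 lower genes that had a value, and 48.3% over all 17864 tested genes with a value. It was 42.6% in the genes that were higher with an unadjusted p under 0.05 and 57.3% in those that were lower. Across genes, which are not independent replicates, Spearman's rho between the log2 fold change and GC content was -0.52, and it was -0.41 without MitoQ replicate 3. The median log2 fold change went from 0.15 in the tenth of genes with the lowest GC content (30.5% to 39.97%) to -0.25 in the tenth with the highest (57.2% to 75.5%). In single libraries, rho between a gene's deviation from its mean and its GC content was 0.20, 0.14, -0.03, 0.30 and 0.10 in the water libraries and -0.21, -0.09, -0.14, -0.19 and -0.28 in the MitoQ libraries, so that the groups did not overlap in this measure. With offsets that removed this trend from each library, 259 genes had an unadjusted p under 0.05, and the median over the 13 mitochondrial protein genes, whose transcripts are poor in GC, was 0.51 in place of 0.72. The part of GC content in the single-gene differences was not tested otherwise.

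**Figure D4:**
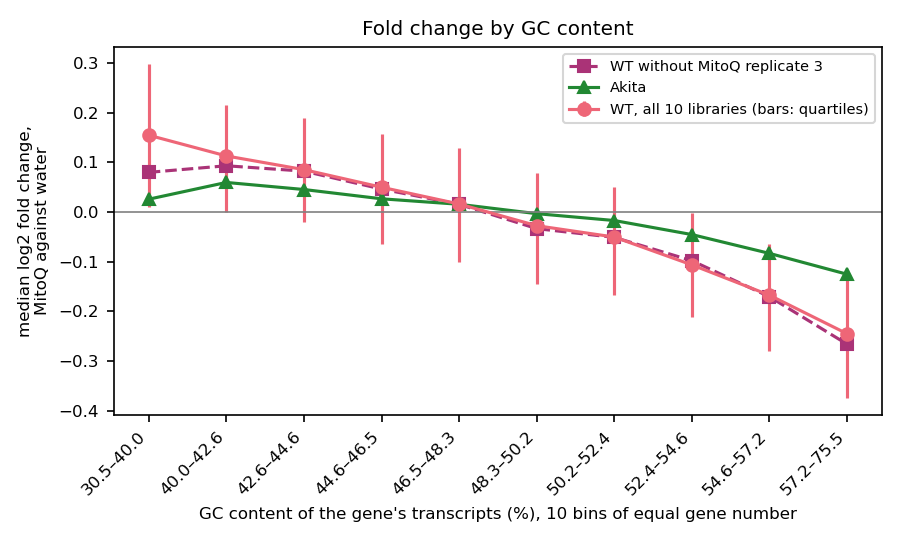
The median log2 fold change of MitoQ against water (vertical axis) is drawn for 10 bins of equal gene number by GC content (%, horizontal axis) in WT mice with quartile bars, in WT mice without MitoQ replicate 3 and in Akita mice. The WT median falls from 0.15 in the bin with the lowest GC content to -0.25 in the bin with the highest.

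The summed levels of cell type markers varied between the libraries. The liver markers summed to 503, 35.6, 31.6, 76.2 and 48.9 CPM in water replicates 1 to 5 and to 53.1, 81.8, 20.9, 37.2 and 63.4 CPM in MitoQ replicates 1 to 5. In each MitoQ library, Ttr (11.8 to 55.0 CPM) and Serpina1a (2.54 to 29.1 CPM) made up most of this sum. Albumin, Alb, was at 287 CPM in water replicate 1, at 2.70 to 30.1 CPM in the other water libraries and at 2.89 to 5.41 CPM with MitoQ. Its next highest levels were 30.1 CPM in water replicate 4 and 11.4 CPM in water replicate 2. Serpina3k was at 17.3 CPM in water replicate 1 and at 2.05 and 0.97 CPM in water replicates 4 and 2. It was at 0 CPM in all 5 MitoQ libraries. Of the 9 liver markers, 8 were lower with MitoQ and 6 of these had an unadjusted p under 0.05, beside 2.42% of all tested genes. Serpina3k, Mup3 and Apoa1 had 0, 0 to 1 and 1 to 4 counts in the MitoQ libraries and passed the count filter only through the water libraries. They could thus be tested only as lower with MitoQ. Without water replicate 1, 6 of the 9 markers were still tested and 3 were lower. Of these, 1, Alb, had an unadjusted p under 0.05, with a log2 fold change of -1.58 in place of -4.03. Apolipoprotein A-I, Apoa1, was at 33.6 CPM in water replicate 1, at 0.117 to 2.87 CPM in the other water libraries and at 0.0498 to 0.423 CPM with MitoQ. A fit of all 40 libraries together called 27 genes in this comparison, and 14 of the 21 lower ones had their highest level in water replicate 1. These included the hepatocyte genes Cps1, Mat1a, Ahsg, Tat and Tdo2, which were singled out after their values were seen. The other calls of that fit included mt-Nd4l, mt-Nd6, Zfp97 and Nkapd1, which were higher, and Jund, Hs3st6, Hgh1, Cbarp and CT010467.2, which were lower. When water replicate 1 was left out of that fit, 2 genes were called, namely the pseudogene Gm3953 and Cbarp. The part of liver RNA in the results for genes other than these markers was not tested beyond leaving out that library.

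**Figure D5:**
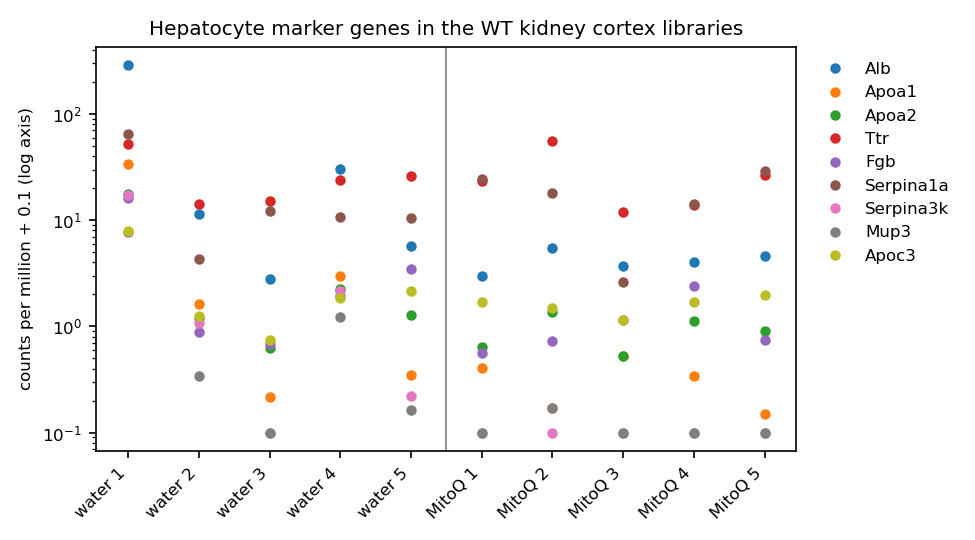
Points give the level of 9 hepatocyte marker genes in CPM with 0.1 added (log axis) in each WT library, with water libraries on the left and MitoQ libraries on the right of the line. Of the 9 markers, 8 have their highest level in water replicate 1, where Alb is at 287 CPM.

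All 7 podocyte markers were lower with MitoQ, with a median log2 fold change of -0.51, and 3 of them had an unadjusted p under 0.05, where 2.42% of all tested genes were lower with such a p and 46.4% were higher at any p. Nephrin, Nphs1, a protein of the slit diaphragm, was at 13.6, 29.5, 22.9, 28.9 and 16.7 CPM with water and 10.8, 16.2, 22.6, 11.7 and 11.8 CPM with MitoQ. The groups overlapped, and the log2 fold change was -0.63 ± 0.26. The transcription factor gene Wt1 and the cell cycle inhibitor gene Cdkn1c were at -0.67 ± 0.29 and -0.72 ± 0.29. Water replicate 2 had the highest sum of podocyte markers (444 CPM, against 228 to 332 in the other water libraries and 215 to 323 with MitoQ), and without it 6 of 7 were lower, 0 had an unadjusted p under 0.05 and the median was -0.31. With the GC offsets all 7 were lower, again with 0 such p and a median of -0.31, whereas without water replicate 1 and MitoQ replicate 3 it was -0.86 with 4 such p. Markers of principal cells of the collecting duct were also all lower, with a median of -0.35 over 7 genes and 1 unadjusted p under 0.05, but without water replicate 2 it was 6 of 7, with a median of -0.24 and 0 such p. The water channel gene Aqp2 was at 86.1, 43.9, 45.5, 40.1 and 68.2 CPM with water and 50.7, 31.0, 18.4, 31.0 and 54.6 CPM with MitoQ. Of 8 markers of fibroblasts and mural cells 7 were lower, with a median of -0.31 (6 and -0.15 without water replicate 2), and of 8 endothelial markers 5 were higher, with a median of 0.09. All 5 markers of the distal convoluted tubule (median -0.16), all 5 of blood (-0.29) and all 4 tested adipocyte markers (-0.72) were lower too. Of 8 macrophage markers 7 were lower, with a median of -0.08. Proximal tubule markers were divided, with 5 higher and 7 lower and a median of -0.04. Markers of the thick ascending limb were divided 3 to 3, with a median of -0.01. Haemoglobin genes, a sign of blood in the tissue, ranged from 332 to 1189 CPM in sum with water and from 394 to 1057 CPM with MitoQ.

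In gene groups of kidney injury and immunity, the genes with an unadjusted p under 0.05 were all lower. They were 2 of 22 genes of collagen and matrix and 1 of 14 of tubular injury and repair. The other lists held 2 of 19 immediate early genes and 1 of 29 genes of the interferon response. Over all tested genes, 2.42% were lower with such a p, and 433 of all 575 genes with such a p were lower. Of 22 tested genes of collagen and matrix, 6 were higher and 16 lower, with a median of -0.08, or -0.20 without MitoQ replicate 3. The laminin gene Lamb2, expressed in the glomerular basement membrane, was at 39.6 to 54.2 CPM with water and 33.5 to 41.8 CPM with MitoQ (-0.37 ± 0.13), and the collagen gene Col1a2 had a log2 fold change of -0.35 ± 0.16. Of 14 tested genes of tubular injury and repair, 1 was higher and 13 were lower, with a median of -0.14, which was -0.04 without water replicate 1 and -0.24 without water replicate 3. The fibrinogen gene Fgb, which hepatocytes also express, was the 1 gene of this list with an unadjusted p under 0.05. It was at 16.1 CPM in water replicate 1 and at 0.587 to 3.39 CPM in the other water libraries. Its log2 fold change was -2.17, and -0.71 without water replicate 1. In edgeR's quasi-likelihood test without that library, its unadjusted p was 0.27. Of 19 tested immediate early genes, which are induced within minutes of stimulation, 5 were higher and 14 lower, with a median of -0.14, or -0.42 without MitoQ replicate 3 and -0.04 without water replicate 2. Beside Jund, the list held Ier3 at 10.4 to 16.7 CPM with water and 7.16 to 11.0 CPM with MitoQ (-0.56 ± 0.17). Of 29 genes of the interferon response and antigen presentation, 11 were higher and 18 lower, with a median of -0.07, and Ifi27 had the smallest p (-0.42 ± 0.17).

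Metabolic groups had medians close to zero. Of 40 tested genes of xenobiotic metabolism, 17 were higher and 23 lower, with a median of -0.03. The smallest p belonged to both P-glycoprotein genes, which export lipophilic and cationic drugs. Abcb1a was at 2.54, 2.92, 2.35, 5.02 and 4.01 CPM with water and 3.96, 5.198, 5.70, 5.89 and 5.18 CPM with MitoQ. The groups overlapped by water replicates 4 and 5, and the log2 fold change was 0.63 ± 0.24 (unadjusted p = 0.021). Abcb1b was at 3.22 to 4.38 CPM with water and 4.23 to 5.77 CPM with MitoQ, a log2 fold change of 0.38 ± 0.17. Both genes encode P-glycoproteins and could share reads, which was not tested. In the same list Cyp27b1, which makes active vitamin D, was at 4.09 ± 1.8 CPM with water and 2.08 ± 1.1 CPM with MitoQ (SD, n = 5). Of 36 tested genes of fatty acid oxidation and PPAR-alpha targets, 13 were higher and 23 lower, with a median of -0.06, and its gene with the smallest p, Fabp1, was at 7.18 CPM in water replicate 1 and at most at 0.634 CPM in any other library. Of 28 genes of cholesterol and fatty acid synthesis, 15 were higher and 13 lower, with a median of 0.01. Of 28 heat shock and ER chaperones, 18 were higher and 10 lower, with a median of 0.02, and the ER chaperone gene Hsp90b1 was at 281 ± 67.9 CPM with water and 343 ± 18.9 CPM with MitoQ. Of 48 cytosolic ribosomal protein genes, 32 were lower, with a median of -0.06, which was 0.11 without MitoQ replicate 3. The 20 genes of the circadian clock were divided 11 to 9, and 16 androgen-responsive genes were divided 9 to 7, with the prolactin receptor gene Prlr at 0.66 ± 0.29.

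In Akita mice, MitoQ was compared with water in another 10 libraries that are not shared with the WT comparison. Of 18496 genes tested there, 0 were called (0%), 363 had an unadjusted p under 0.05 and the smallest adjusted p was 0.999. The difference of the MitoQ effect between both genotypes was tested as an interaction over 18225 genes, of which 0 were called (0%) and 207 had an unadjusted p under 0.05. Among the 535 genes with an unadjusted p under 0.05 in WT mice that were also tested in Akita mice, 444 had the same sign in both (83.0%), against 58.5% of all 17613 genes tested in both. With the GC offsets, this share was 74.8% of 222 genes, against 52.7% of all. Of the 535 genes, 30 also had an unadjusted p under 0.05 in Akita mice with the same sign. Of the named genes without overlap in WT mice, some had the opposite sign in Akita mice. These were Hs3st6 (0.40), Hgh1 (0.16), Olfr323 (-0.52), Zfp97 (-0.29), Cep290 (-0.05) and Nkapd1 (-0.001). The other named genes without overlap kept their sign. Across genes, Spearman's rho of both sets of fold changes was 0.22, and that between the Akita fold change and GC content was -0.25. In Akita mice, mt-Nd4l had a log2 fold change of 0.38 (interval 0.02 to 0.75), beside 1.23 (interval 0.50 to 1.97) in WT mice. The median over the 13 mitochondrial protein genes was 0.25 in Akita mice, beside 0.72 in WT mice. Akita water replicates 2 and 5 had low protein-coding shares of 36.7% and 41.5%. In the other Akita libraries of this comparison the share was 53.4% to 65.4%. The part of these low shares in the Akita median was not tested. Jund was at -0.10 (interval -0.43 to 0.23) in Akita mice, and Hmox1 was at 0.59 (interval 0.01 to 1.17), beside -0.59 and -0.04 in WT mice. The differences between genotypes in these genes did not pass the adjusted threshold of edgeR's quasi-likelihood test, and the smallest adjusted p of the interaction over all genes was 0.99999.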

How the data were processed

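Total RNA of the renal cortex of individual mice was depleted of ribosomal RNA and sequenced (100-cycle single reads, directional kit). After trimming with Skewer, the authors used kallisto 0.46.1 to map the reads to transcripts of GENCODE mouse release 25 and aggregated transcripts to genes in R 4.0.2. The deposited table holds these estimated counts as unscaled whole numbers for 55401 genes in 40 libraries. Positions, biotypes and GC content were taken from GENCODE release 21 on GRCm38, which held 99.5% of the identifiers. Here, edgeR 4.0.16 (TMM, quasi-likelihood test) in R 4.3.3 was run on the 10 WT libraries after excluding genes whose mean was under 10 counts, with Benjamini-Hochberg adjustment over all tested genes and a threshold of 0.05. The SE was obtained by dividing the absolute log2 fold change by the square root of F. The paper's methods use DESeq2, which was run as an alternative (version 1.42.0), beside limma 3.58.1 and the settings of the closing section. Library shares were compared by two-sided exact permutation tests. The methods were tested on simulated data, and the outcome of that test is not reported here.

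The libraries, gene lists and rule for named genes were chosen with earlier results of these data known. The rule took the 10 higher and the 10 lower named genes of smallest p whose groups did not overlap, the 2 members of each list with the smallest p, and Nqo1, Hmox1, Sod2, Ppargc1a and Cat. Not every gene that the rule selects is reported here. Other genes were named after their values were seen. The replicates are separate animals. No sample was dropped from the main test, and the other groups of the series were not analysed here except as stated.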

Additional observations from a re-analysis of the deposited data

Results flagged for a closer look

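In 196 sets of 5 values, each from 1 group, a library far from the others was sought. The sets were library measures, sums of cell type markers and named or mitochondrial genes. Of the 196 sets, 23 held one, where chance flags about 1 in 20 independent sets, or 9.8. The sets come from the same libraries and are not independent, so 23 and 9.8 were not compared by a test. In 12 of the 23 sets the library was MitoQ replicate 3 and in 6 it was water replicate 1.

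In MitoQ replicate 3, the protein-coding share was 27.1% (56.5% to 64.8% in the other MitoQ libraries), the mitochondrial share 49.2% (24.7% to 28.3%), the mitochondrial rRNA share 46.6% (20.1% to 25.02%), the nuclear-encoded rRNA share 16.6% (0.155% to 2.54%) and the share of the 10 most abundant genes 72.5% (33.3% to 40.1%). In the same library, mt-Nd4l was at 1258 CPM, mt-Nd2 at 4287 CPM, mt-Nd6 at 2023 CPM, Nkapd1 at 19.2 CPM, Ciart at 2.96 CPM, Lamb2 at 41.8 CPM and Ppargc1a at 111 CPM, each of them above the other 4 MitoQ libraries.

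In water replicate 1, liver markers summed to 503 CPM (31.6 to 76.2 in the other water libraries), markers of renal papilla and urothelium to 53.7 CPM (4.61 to 15.4), adipocyte markers to 29.7 CPM (2.96 to 10.0) and skeletal muscle markers to 5.35 CPM (1.33 to 1.64). Fgb was at 16.1 CPM and Fabp1 at 7.18 CPM there. In the MitoQ libraries, liver markers, chiefly Ttr and Serpina1a, summed to 20.9 to 81.8 CPM and markers of renal papilla and urothelium to 1.69 to 47.3 CPM. Adipocyte markers summed to 2.04 to 17.7 CPM and skeletal muscle markers to 0.773 to 1.44 CPM with MitoQ.

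Single flags fell on other libraries. Water replicate 4 held 9.74% nuclear-encoded rRNA (0.0754% to 1.47% in the other water libraries). Markers of fibroblasts and mural cells summed to 313 CPM in water replicate 2 (173 to 200 CPM in the others). Mdh2 was at 118 CPM in water replicate 3, Sod3 at 197 CPM in MitoQ replicate 4 and Hmox1 at 22.0 CPM in MitoQ replicate 2. The causes of these flags were not tested.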

How the results depend on the processing

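Of 24 alternatives, 20 called 0 genes and 4 called at least 1. DESeq2 called 0 genes higher and 2 lower, the fit of all 40 libraries 6 higher and 21 lower (2 lower without water replicate 1), and the fit with the replicate number as a block 1 lower, the pseudogene Gm13394, which had 1987 counts in water replicate 1 and 0 to 30 in the other libraries. Of the DESeq2 calls, the pseudogene Gm3953 had 5816 counts in water replicate 1, 1197 in water replicate 2 and 10 to 100 in the others. The count of genes with an unadjusted p under 0.05 was 990 without a filter on low counts, 1409 with all 40 libraries (1247 without water replicate 1), 1938 with the protein-coding share as covariate, 3861 with limma voom and sample weights, 259 with GC offsets, 1147 without water replicate 1 and MitoQ replicate 3, and 350 to 998 with each library left out in turn. The count was 350 without MitoQ replicate 5, 380 without MitoQ replicate 4 and 998 without water replicate 5. The smallest adjusted p was 0.162 with the covariate and 0.0902 with limma. The differences in protein-coding share, mitochondrial share, total counts and the 10 most abundant genes kept p over 0.05 with each library left out, with a range of -6.88 to 3.03 percentage points for the protein-coding share and of -3.23 to 6.65 for the share of the 10 most abundant genes, whose signs changed without MitoQ replicate 3. The fits with GC offsets (with and without MitoQ replicate 3), that without water replicate 1 and MitoQ replicate 3, and that of all 40 libraries without water replicate 1 were chosen after seeing the data.

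The deviations of same-numbered libraries correlated with r of -0.12, -0.16, 0.56, -0.25 and 0.24, and only those of replicate 3 were each other's best match, so the numbers were not taken as pairing the animals. Besides the 1 gene called under the block, 645 genes had an unadjusted p under 0.05.

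Of 1575 single-gene fold changes, 25 changed sign, in 9 of 66 genes, none of them called. With limma these were Prdx2 0.013, Mvd 0.041, Rplp2 0.022 and Hmox1 0.10. With GC offsets they were Mvd 0.077, Pcx 0.014, Hmox1 0.060 and Sod2 -0.078. With GC offsets and no MitoQ replicate 3 they were Mvd 0.16, Shmt2 0.031, Gstp1 0.0082, Pcx 0.093, Hmox1 0.083 and Ppargc1a -0.066. Hmox1 was 0.043 with the covariate and 0.067 with all 40 libraries less water replicate 1. With libraries left out, singly or water replicate 1 with MitoQ replicate 3, Prdx2 lay between -0.39 and 0.0095, Mvd between -0.23 and 0.034, Hmox1 between -0.17 and 0.11 and Sod2 between -0.057 and 0.25. The cause was not tested. Of the 22 list medians, 15 changed sign when some single library was left out and 7 kept it, among them that of the mitochondrial genome, with a median log2 fold change of 0.56 to 0.90.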
